A study of Mus musculus with 6 samples.

Results

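Hemoglobin transcripts and the genes that clear hemoglobin and heme were examined in mouse colon. The 10 genes were the adult alpha globin genes Hba-a1 and Hba-a2, the adult beta globin genes Hbb-bs and Hbb-bt, Alas2, Hp, Hpx, Hmox1, Cd163 and Blvrb. They were found by mapping the Ensembl identifiers of the deposited table to GENCODE mouse symbols, and all 10 had a row among the 20533 genes of the table. The tissue was distal colon, taken on day 7 from C57BL/6 males of the wild type at 7 weeks of age. A group of 2 libraries came from mice on water. Another 2 came from mice drinking 2% DSS, dextran sulphate sodium, which damages the lining of the large bowel and serves as a colitis model. The last 2 came from mice on 2% DSS plus montmorillonite powder, an adsorbent clay. The labels gave no dose of montmorillonite and left it unsaid if each library was a different mouse, so p-values measure only the spread between libraries.

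Red blood cells carry hemoglobin, a tetramer of alpha and beta globin chains that each hold a heme group. When red cells leave the vessels or break, haptoglobin (Hp) binds the free hemoglobin and hemopexin (Hpx) binds free heme, and macrophages take up the haptoglobin complex through the receptor CD163. Heme oxygenase 1 (Hmox1) then opens the heme ring to biliverdin, iron and carbon monoxide. Biliverdin reductase B (Blvrb) reduces flavins and a form of biliverdin other than the one heme oxygenase makes. Alas2 makes the first step of heme synthesis in red cell precursors. DSS colitis is known for rectal bleeding, and haptoglobin and heme oxygenase 1 are also known to rise in inflammation.

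The globin copies are shown first, since their likeness limits what a read count can say of each. The coding sequences of Hba-a1 and Hba-a2 (429 bases each) differed at 1 base, C381T, and those of Hbb-bs and Hbb-bt (444 bases each) at 1 base, C417T. Positions count from 1 at the first base of the start codon, with the base of the first-named copy before the position. The stretches around these bases are given below, from the GENCODE M21 transcripts on build GRCm38, with the differing base in capitals. The alpha stretch covers coding bases 351 to 411 and the beta stretch bases 387 to 444.
Hba-a1: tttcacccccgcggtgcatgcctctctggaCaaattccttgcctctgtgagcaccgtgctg
Hba-a2: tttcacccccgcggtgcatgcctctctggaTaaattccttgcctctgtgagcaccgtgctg
Hbb-bs: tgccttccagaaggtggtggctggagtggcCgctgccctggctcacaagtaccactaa
Hbb-bt: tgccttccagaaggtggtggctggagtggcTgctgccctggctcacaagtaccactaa
Of all 100-base windows along the transcript, 56.5% of those of Hba-a1 also lay in Hba-a2 and 74.5% of those of Hba-a2 in Hba-a1. The shares were 62.6% for Hbb-bs in Hbb-bt and 54.8% for Hbb-bt in Hbb-bs. Reads from such windows can come from either copy, and how the authors assigned them is not given in the sources used here. Values of single copies are therefore uncertain, and sums over the copies are given beside them. No 100-base window was shared between Hba-a1 and Hbb-bs.

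The sequences before the RefSeq starts were nearly identical in the alpha pair and not in the beta pair. In the 200 bases before the RefSeq start sites (GRCm38.p6), the longest run shared by Hba-a1 and Hba-a2 was 197 bases, against 14 for Hbb-bs and Hbb-bt. The window of Hba-a2, chr11:32296292-32296491 on the plus strand, is shown because the alpha pair shares it and because nearly all of it lies outside the GENCODE gene. GENCODE starts Hba-a1, Hbb-bs and Hbb-bt inside their RefSeq windows, so that most of the window of Hba-a1 and Hbb-bs and a smaller part of that of Hbb-bt lie within the GENCODE gene. Capitals mark letter matches to the CCAAT box, the CACCC box and a GATA motif.
Hba-a2 upstream: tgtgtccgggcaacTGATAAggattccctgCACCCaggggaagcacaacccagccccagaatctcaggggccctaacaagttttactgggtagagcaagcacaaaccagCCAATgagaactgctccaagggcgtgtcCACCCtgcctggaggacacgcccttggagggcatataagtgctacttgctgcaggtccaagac
The capitals begin 186 (TGATAA), 170 (CACCC), 91 (CCAAT) and 63 (CACCC) bases before the start. Motifs were searched on both strands, and RefSeq windows were held for 8 of the 10 genes. All 4 globin windows held CCAAT, which 29.3% of 32851 windows held, and CACCC, which 45.5% held. A GATA match (GATA with A or T before it and A or G after it; 21.4% of windows) was found for Hba-a1, Hba-a2, Alas2, Hpx and Blvrb. These matches are descriptions of the letters and no evidence of binding.

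The deposited values were normalised read counts, that is, reads divided by 1 factor per library. The recovered reads summed to between 3741494 and 21481594 per library, and a single read was worth 0.335 in the library with most reads and 2.27 in that with fewest. Both water libraries were shallower than both DSS libraries, so low values are coarser in water. The colon label was matched by 10 of 10 colonocyte markers with reads in every library (summed value 22693 to 108056). The DSS plus montmorillonite libraries stood far apart. A list of neutrophil markers summed to 200 in the first replicate and 9719 in the second, where water had 58.6 and 91.0 and DSS 3618 and 14841. For this reason each library's value is given, in the order replicate 1 and replicate 2.

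**Figure D1:**
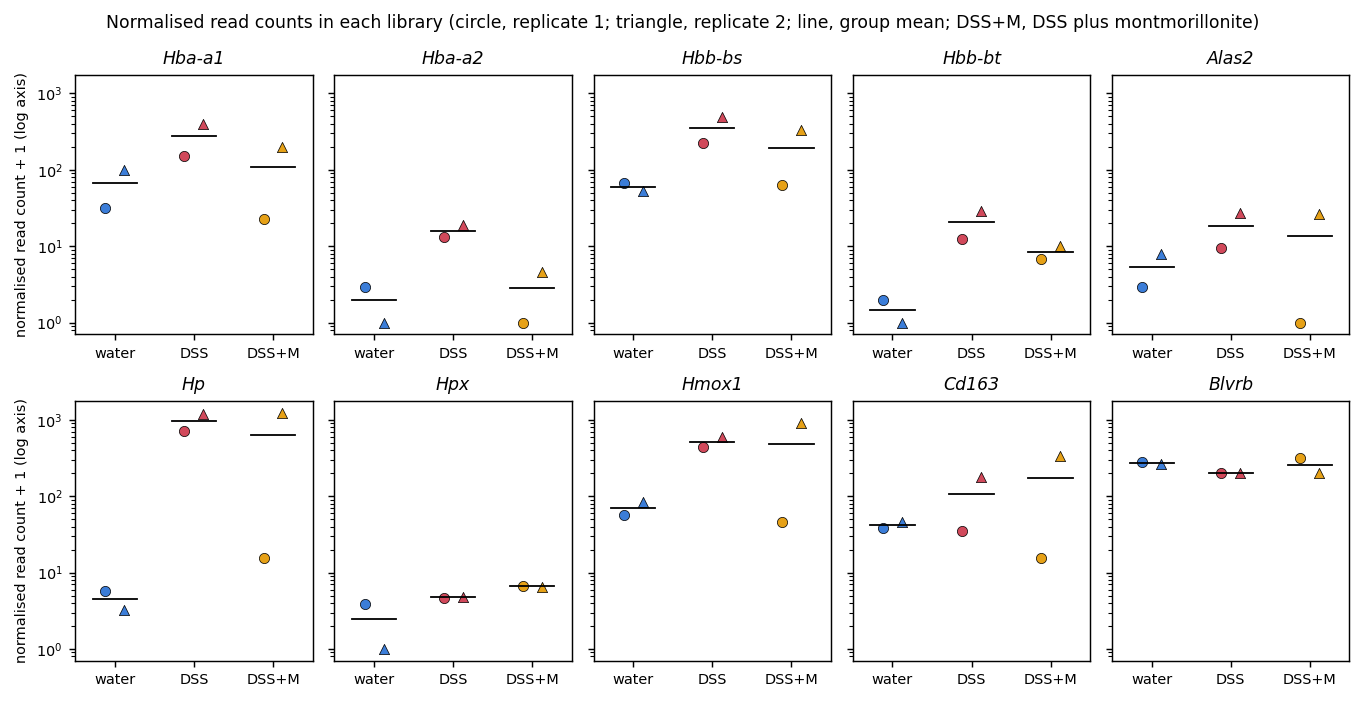
Normalised read count plus 1 (log axis) of the 10 genes in each of the 6 libraries, with circles for replicate 1, triangles for replicate 2 and lines for group means. Hp lay between 2.27 and 4.80 in water and at 707 and 1199 in DSS, and in DSS plus montmorillonite replicate 1 lay at 14.4 and replicate 2 at 1239.

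DSS was compared with water to ask how the 10 genes differed in injured colon. Transcripts of beta globin, haptoglobin and heme oxygenase 1 rose in DSS. Hba-a1, with most of the counted alpha globin reads, lay higher and Blvrb lower, neither passing the test. By limma on log2(value + 1), fitted to these 4 libraries and adjusted over 20307 genes, 5 of the 10 genes rose (Hba-a2, Hbb-bs, Hbb-bt, Hp and Hmox1) and 0 fell. Of all genes tested, 15.1% were called in either direction, 7.9% higher and 7.18% lower. The median log2 fold change was 2.30 over the 10 genes and 0.10 over all genes tested. The DSS libraries lay above both water libraries for 8 of the 10, where 33.9% of all genes did, and below both for 1, Blvrb, where 28.5% did. Without regard to direction, 62.4% of all genes did not overlap. In bulk RNA, a change in the number of cells of a type and a change in RNA per cell cannot be told apart.

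These calls changed with the fit and with each library left out. With all 6 libraries in 1 fit limma called 0 of the 10 and 0 genes in all (smallest adjusted p = 0.0576, 4662 genes at an unadjusted p under 0.05). Without water replicate 1 or water replicate 2 there were 2 of the 10 called, Hp and Hmox1, with 1.42% and 1.56% of all genes called. Without DSS replicate 1 or DSS replicate 2 there were 0 of the 10 and 0% of all genes.

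Hbb-bs (ENSMUSG00000052305.6, GRCm38 chromosome 7, 103826534 to 103828096) was the most abundant globin transcript in DSS. Its normalised read count was 66.2 and 52.3 in water against 221 and 493 in DSS. Both DSS libraries were well above both water libraries, and DSS replicate 2 was the highest of the 6. The means were 59.3 ± 9.84 (SD, n = 2) and 357 ± 192, a log2 fold change of 2.47 ± 0.42 (SE, limma adjusted p = 0.0187). Hbb-bt (ENSMUSG00000073940.3, chromosome 7, 103812524 to 103813996), the other beta gene, had 0.960 and 0 in water against 11.4 and 27.8 in DSS. It was at or near the level of no read in water and clearly counted in both DSS libraries. Its log2 fold change was 3.75 ± 0.74 (SE, limma adjusted p = 0.0267). Water held 1 read of Hbb-bt, and the ratio of pooled reads was 26.9 with a 95% counting interval of 4.71 to 1073. It did not pass with a pseudocount of 0.1. Summed over both beta genes, the log2 fold change was 2.53 ± 0.42 (SE, limma adjusted p = 0.0178), 5.79-fold.

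Hba-a1 (ENSMUSG00000069919.7, chromosome 11, 32283511 to 32284465) carried nearly all alpha globin reads as counted. It had 30.7 and 100 in water against 152 and 399 in DSS. The groups did not overlap, but the water libraries differed 3.26-fold between themselves. The log2 fold change of 2.13 ± 0.68 (SE) did not pass (limma adjusted p = 0.0889). Hba-a2 (ENSMUSG00000069917.7, chromosome 11, 32296489 to 32297298) had 1.92 and 0 in water against 12.4 and 17.7 in DSS. It was low throughout, with both DSS libraries above water. Its log2 fold change of 3.21 ± 0.75 (SE) passed (limma adjusted p = 0.0410), on 2 reads in water and a ratio of pooled reads of 10.8 (95% counting interval 2.89 to 90.9). It did not pass with a pseudocount of 0.1, in edgeR or in DESeq2, whereas Hba-a1 passed in DESeq2. Summed over both alpha genes the log2 fold change was 2.17 ± 0.65 (SE) and did not pass (limma adjusted p = 0.0776).

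Hba-a2 and Hbb-bt held a small share of the reads as counted. In the DSS libraries Hba-a2 held 7.55% (exact Clopper-Pearson 95% interval 5.37 to 10.3) and 4.26% (3.02 to 5.82) of alpha globin reads. Hbb-bt held 4.90% (3.42 to 6.78) and 5.34% (4.08 to 6.84) of beta globin reads. The other 4 libraries held at most 108 reads of Hba-a1 and 180 of Hbb-bs, too few to order their shares. Counting intervals cover counting error only, and not how reads shared by the copies were assigned. The shares are therefore those of the counts and may differ from those of the transcripts.

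All 4 globin genes together had a CPM (reads scaled to a library total of 1000000) of 11.6 and 17.9 in water (exact Clopper-Pearson 95% intervals 9.51 to 14.1 and 13.9 to 22.7). In DSS their CPM was 55.1 (52.0 to 58.3) and 129 (123 to 134). The DSS libraries lay above water by more than counting error and also apart from each other by more than counting error. The ratio of pooled reads of DSS to water, on the normalised scale, was 5.36 (95% counting interval 4.60 to 6.29). Levels per kilobase were taken over the merged annotated exons of a gene. These can be longer than 1 transcript, at 812 bases against 699 for Hba-a1. Per kilobase of merged exons, the level of alpha globin was 0.465 and 1.81 times that of beta globin in water. In DSS it was 0.676 and 0.759 times that of beta globin. Alpha lay below beta in both DSS libraries and in 1 of the 2 water libraries.

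Alas2 (ENSMUSG00000025270.13, chromosome X, 150547375 to 150570638), the erythroid enzyme of heme synthesis, had 1.92 and 6.82 in water against 8.38 and 26.4 in DSS. The groups did not overlap, but DSS replicate 1 lay close to water replicate 2. The log2 fold change of 1.74 ± 0.82 (SE) did not pass (limma adjusted p = 0.203). Its locus overlaps Apex2 on the opposite strand, and whether counting used strand is not given in the sources used here.

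Other red cell and erythroid precursor genes did not move in a single direction. Of 23 listed markers 15 had a row and 13 were tested. Of these 2 rose, 1 fell and 10 did not pass, with a median log2 fold change of 0.49. Trim10, a RING finger protein of red cell maturation, had 0.960 and 2.27 in water against 39.5 and 39.8 in DSS (log2 change 4.005 ± 0.57 SE, limma adjusted p = 0.0128). Slc25a37, the mitochondrial iron importer mitoferrin 1 and the most abundant gene of the list, rose by 1.15 ± 0.22 (log2, SE, limma adjusted p = 0.0242). The summed list stood at 896 and 989 in water against 1081 and 1202 in DSS, with 3 and 2 of its genes at 0 in water against 0 and 3 in DSS. Most of this sum came from Slc25a37 (291 and 221 in water, 526 and 605 in DSS) and Bpgm (401 and 487, 342 and 275). The sum therefore says little of the other markers on the list. The part of red cells or precursors in the hemoglobin counts was not tested.

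Hp (ENSMUSG00000031722.10, chromosome 8, 109575128 to 109579172), the hemoglobin-binding plasma protein haptoglobin, showed the largest difference of the 10 genes. It had 4.80 and 2.27 in water against 707 and 1199 in DSS. Water held 6 reads in all and DSS 4612. The means were 3.54 ± 1.79 (SD, n = 2) and 953 ± 348, a log2 fold change of 7.72 ± 0.45 (SE, limma adjusted p = 0.00230), 212-fold. The ratio of pooled reads was 225 (95% counting interval 103 to 612). Hp was the highest of the 10 genes in DSS per kilobase of merged exons, at a mean of 593, and stood at rank 6 in water (2.20). In DSS its per-kilobase range overlapped that of Hbb-bs, the next in order (mean 465).

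Hpx (ENSMUSG00000030895.9, chromosome 7, 105591613 to 105600137), the heme-binding plasma protein hemopexin, was near the level of single reads. It had 2.88 and 0 in water against 3.69 and 3.84 in DSS. These values rest on 3 reads in water and 19 in DSS. The log2 fold change of 1.27 ± 0.84 (SE) did not pass (limma adjusted p = 0.345), and a ratio of pooled reads of 1.85 had a 95% counting interval of 0.545 to 9.76. Hp and Hpx thus differed in level, with a mean per kilobase in DSS of 593 for Hp and 2.51 for Hpx. The difference between their changes was not tested.

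Both plasma proteins are made mainly in the liver. Of 10 hepatocyte markers 5 had a row and 4 were tested, and 1, Ttr, the thyroid hormone carrier transthyretin, fell (log2 change -3.83 ± 0.37 SE, limma adjusted p = 0.00655). The summed list stood at 360 and 318 in water against 35.8 and 24.9 in DSS. This sum does not speak for each marker, since 3 of the 4 tested did not pass and the groups overlapped for 2. Alb, the defining albumin gene, had 2.88 and 4.55 in water against 1.005 and 0 in DSS. Haptoglobin is also made by neutrophils and fat cells. Of the neutrophil markers 7 of 10 tested rose and 0 fell, with a median of 6.86. Among them were Mmp9, a granule protease (log2 change 6.81 ± 0.44 SE, limma adjusted p = 0.00281), and Csf3r, the receptor of granulocyte colony-stimulating factor (4.74 ± 0.32 SE, limma adjusted p = 0.00308). Ltf, lactoferrin and the most abundant gene of the list, had 28.8 and 50.03 in water against 136 and 6611 in DSS (limma adjusted p = 0.118). Of the neutrophil markers 7 and 5 were at 0 in the water libraries and none in the DSS libraries. Of 8 adipocyte markers 5 were tested. Fabp4 (log2 fold change 1.75) and Lpl (2.20) rose, 0 fell and 3 did not pass, with a median of 0.20. The groups overlapped for 3 of the 5 tested. The summed list stood at 264 and 293 in water against 1010 and 1007 in DSS, and Adipoq, Plin1 and Lep had no row. The part of these cell types in the haptoglobin difference was not tested.

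Haptoglobin is an acute phase protein, and 12 other acute phase and IL-6 responsive genes were looked at beside it. Of these 7 rose, 0 fell and 5 did not pass, with a median log2 fold change of 3.57. Saa3, a serum amyloid A made outside the liver, rose by 8.38 ± 0.30 (log2, SE, limma adjusted p = 0.00137), and Lcn2, the siderophore-binding lipocalin 2, by 8.19 ± 0.35 (limma adjusted p = 0.00137). Saa1, another serum amyloid A and the most abundant on average of the list, had 3011 and 3884 in water against 4979 and 2627 in DSS (log2 change 0.08 ± 0.33 SE, limma adjusted p = 0.888). The groups overlapped for Saa1.

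Cd163 (ENSMUSG00000008845.9, chromosome 6, 124304656 to 124330527), the macrophage receptor for haptoglobin and hemoglobin complexes, had 37.4 and 45.5 in water against 33.8 and 176 in DSS. DSS replicate 1 lay below both water libraries and DSS replicate 2 above them. The log2 fold change of 0.90 ± 0.76 (SE) did not pass (limma adjusted p = 0.462), and it was -0.28 without DSS replicate 2. Of 13 resident macrophage markers 2 rose and 0 fell, with a median of 0.48. Cd68, a lysosomal protein of macrophages, rose by 1.67 ± 0.31 (log2, SE, limma adjusted p = 0.0239), and Csf1r, the receptor of macrophage colony-stimulating factor, by 0.93 ± 0.18 (limma adjusted p = 0.0248). C1qa, a complement subunit and the most abundant of the list, did not pass (0.51 ± 0.23 SE). The summed list stood at 3639 and 3295 in water against 4662 and 5860 in DSS, and no marker was at 0 in any library.

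Hmox1 (ENSMUSG00000005413.8, chromosome 8, 75093621 to 75100589), the inducible heme oxygenase, had 55.7 and 84.1 in water against 438 and 597 in DSS. Both DSS libraries were far above both water libraries. The means were 69.9 ± 20.1 (SD, n = 2) and 518 ± 112, a log2 fold change of 2.88 ± 0.30 (SE, limma adjusted p = 0.00702), 7.38-fold. Of 8 inflammatory monocyte markers, another cell type that can carry Hmox1, 5 rose and 1 fell, with a median of 1.71. Chil3, a chitinase-like protein, had 3.84 and 0 in water against 453 and 550 in DSS (log2 change 7.83 ± 0.77 SE, limma adjusted p = 0.00658). Spp1, osteopontin, had 1.92 and 0 in water against 88.1 and 70.0 in DSS (5.54 ± 0.69 SE, limma adjusted p = 0.00962). Plac8, the most abundant of the list, fell (-1.35 ± 0.20 SE, limma adjusted p = 0.0140), and the summed list overlapped between the groups, at 15575 and 17898 in water against 13300 and 21927 in DSS. The part of these cells in the Hmox1 difference was not tested.

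Blvrb (ENSMUSG00000040466.16, chromosome 7, 27447978 to 27466144), the biliverdin and flavin reductase, was the only one of the 10 genes with both DSS libraries below water. It had 280 and 262 in water against 199 and 200 in DSS. The libraries of each group lay close together, but the difference was small, at a log2 fold change of -0.44 ± 0.20 (SE, limma adjusted p = 0.191). Of 10 mature colonocyte markers 0 rose, 9 fell and 1 did not pass, with a median of -1.90. Aqp8, a water channel, fell by 3.48 (log2, limma adjusted p = 0.00159) and Cyp2c55, a cytochrome P450, by 3.20 (limma adjusted p = 0.00245). Ceacam1, the most abundant of the list, did not pass (log2 fold change -0.98 ± 0.27 SE). The summed list stood at 89191 and 87080 in water against 34065 and 22693 in DSS, and its part in the Blvrb values was not tested.

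**Figure D2:**
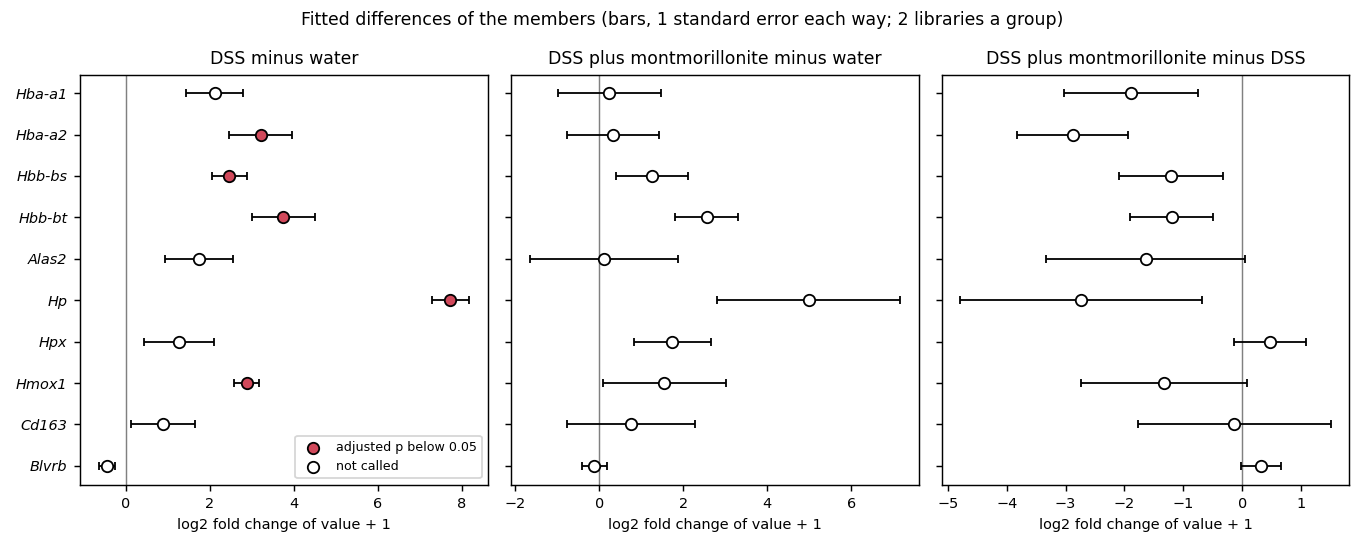
Log2 fold change of value + 1 for each of the 10 genes in the 3 comparisons, with bars of 1 standard error and filled points for a limma adjusted p below 0.05. In DSS minus water 5 genes are filled, from Hbb-bs at 2.47 to Hp at 7.72, and in the other 2 comparisons none is.

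The order of the 10 genes by level also differed between the groups. The order depends on the merged exon lengths used as divisor, which came to 2782 bases for Blvrb. Per kilobase of merged exons, Blvrb stood first in water (mean 97.4), followed by Hba-a1 (80.5), Hbb-bs (77.2) and Hmox1 (39.9). The ranges of the first 3 overlapped from neighbour to neighbour, and that of Hmox1 lay below Hbb-bs but overlapped the wide range of Hba-a1. In DSS the order was Hp (593), Hbb-bs (465), Hba-a1 (339), Hmox1 (296) and Blvrb (71.8). The ranges of the first 4 overlapped from neighbour to neighbour, and Blvrb lay below them. The remaining genes in DSS were Hbb-bt (27.9), Hba-a2 (22.6), Cd163 (19.2), Alas2 (7.23) and Hpx (2.51), with overlap between neighbours down to Alas2 and Hpx apart below it.

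The wider heme pathway was looked at by lists of genes in DSS against water. Of 12 other heme synthesis genes limma called 0 in either direction, as did edgeR and DESeq2, with 3 at an unadjusted limma p under 0.05. Their median log2 fold change was -0.35. Alas1, the housekeeping form of the first enzyme and the most abundant of the list, had 837 and 769 in water against 857 and 1013 in DSS (0.22 ± 0.17 SE, limma adjusted p = 0.439). The smallest p values belonged to Abcb10, a mitochondrial transporter (-0.61 ± 0.21 SE, limma adjusted p = 0.107), and Fech, ferrochelatase, which puts iron into heme (-0.50 ± 0.19 SE, limma adjusted p = 0.132).

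Of 15 other genes of heme uptake, degradation and export 2 rose, 1 fell and 12 did not pass, with a median of 0.08. Spic, a transcription factor of macrophages that recycle red cells, had 2.88 and 6.82 in water against 64.7 and 69.0 in DSS. Both DSS libraries lay far above water (log2 change 3.62 ± 0.55 SE, limma adjusted p = 0.0145, 12.3-fold). Stab1, the scavenger receptor stabilin 1, rose from 250 and 273 to 496 and 1002 (1.43 ± 0.34 SE, limma adjusted p = 0.0437). Ugt1a1, which conjugates bilirubin, fell from 31.7 and 13.6 to 2.68 and 0.959 (-3.03 ± 0.70 SE, limma adjusted p = 0.0401). It shares exons with other Ugt1a genes, so its counts are uncertain. Lrp1, the hemopexin receptor and the most abundant of the list, had 1143 and 1142 in water against 1514 and 4427 in DSS and did not pass (limma adjusted p = 0.150).

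Of 8 genes of iron storage and export 1 rose, 0 fell and 7 did not pass, with a median of 0.41. Cp, the plasma ferroxidase ceruloplasmin, had 152 and 132 in water against 1993 and 2889 in DSS (log2 change 4.07 ± 0.23 SE, limma adjusted p = 0.00230, 16.9-fold). Slc40a1, the iron exporter ferroportin, had 2656 and 2031 in water against 1571 and 817 in DSS and did not pass (limma adjusted p = 0.0904). Fth1, ferritin heavy chain and the most abundant of the list, did not pass (0.44 ± 0.25 SE, limma adjusted p = 0.281). Ltf, given above, is also on this list.

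Hmox1 is a known target of the activator NRF2 and the heme-sensing repressor BACH1, and 10 other targets were listed. Of these 3 rose, 1 fell and 6 did not pass, with a median of -0.22. Slc7a11, the cystine and glutamate exchanger, had 42.2 and 36.4 in water against 329 and 487 in DSS (log2 change 3.32 ± 0.30 SE, limma adjusted p = 0.00557, 9.99-fold). Txnrd1, thioredoxin reductase 1 (0.65 ± 0.16 SE, limma adjusted p = 0.0457), and Me1, malic enzyme 1 (1.20 ± 0.29 SE, limma adjusted p = 0.0464), also rose. Nqo1, a quinone reductase, fell from 272 and 193 to 56.6 and 86.8 (-1.69 ± 0.33 SE, limma adjusted p = 0.0258). Prdx1, a peroxiredoxin and the most abundant of the list, did not pass (log2 change -0.40 ± 0.25 SE, limma adjusted p = 0.319).

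**Figure D3:**
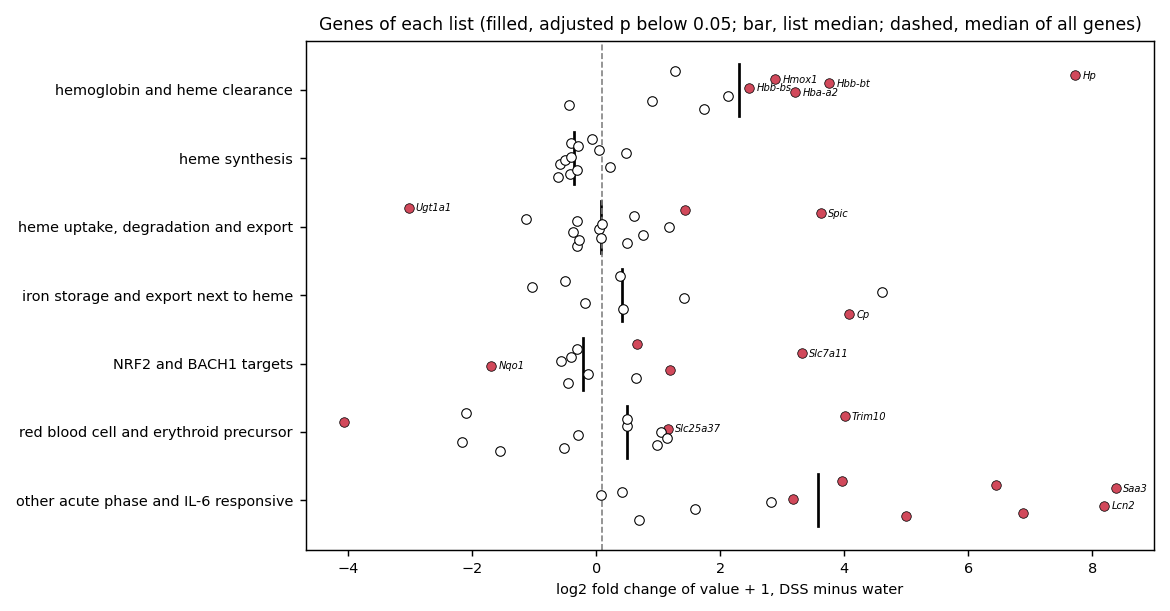
Log2 fold change of value + 1, DSS minus water, for each tested gene of the 10 hemoglobin and heme clearance genes and of 6 other lists; filled points have a limma adjusted p below 0.05, bars are list medians and the dashed line is the median of all genes (0.10). The 10 genes have a median of 2.30, and the heme synthesis list, with no filled point, one of -0.35.

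Markers of vessels and of platelets, both found with blood in tissue, are given as well. Of 9 endothelial markers 7 rose and 0 fell, with a median of 2.24, and the summed list stood at 968 and 1139 in water against 3742 and 7236 in DSS. Pecam1, an adhesion protein of endothelial junctions, rose by 2.23 ± 0.18 (log2, SE, limma adjusted p = 0.00496), Kdr, the receptor of vascular endothelial growth factor, by 2.24 ± 0.26 (limma adjusted p = 0.00855). Plvap, a protein of endothelial diaphragms, was the most abundant of the list and rose by 2.61 ± 0.46 (limma adjusted p = 0.0204). Of 9 platelet and megakaryocyte markers 2 rose, Pf4 and Itga2b, and 0 fell. The summed platelet list stood at 179 and 200 in water against 295 and 10041 in DSS, with 2 and 3 of its genes at 0 in water and none in DSS. Ppbp, a platelet chemokine gene that was the most abundant of the list, had 12.4 in DSS replicate 1 and 9468 in DSS replicate 2. The part of endothelium and platelets in the hemoglobin difference was not tested.

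**Figure D4:**
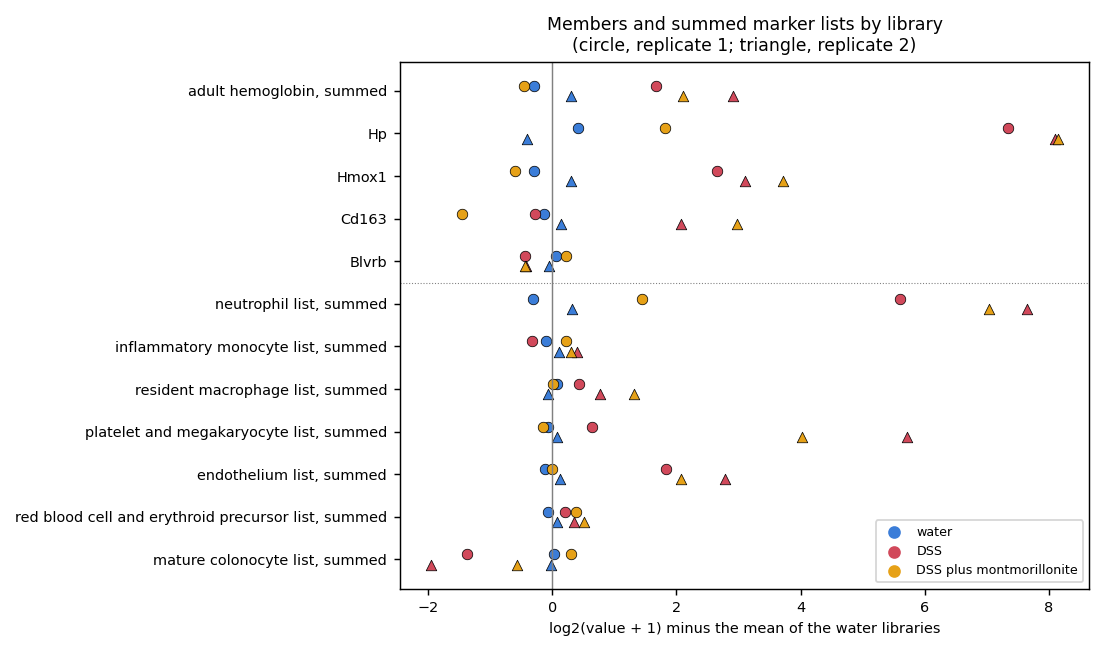
Log2(value + 1) minus the mean of the water libraries for summed hemoglobin, Hp, Hmox1, Cd163 and Blvrb (above the dotted line) and for summed marker lists (below it), by library, with circles for replicate 1 and triangles for replicate 2. The DSS plus montmorillonite libraries lie far apart for summed hemoglobin, Hp, Hmox1 and Cd163, with replicate 1 at -0.46, 1.82, -0.61 and -1.46 and replicate 2 at 2.11, 8.15, 3.71 and 2.98.

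DSS plus montmorillonite was compared with water to ask how far colon given both stood from untreated colon. Limma on these 4 libraries called 0 of the 10 genes and 0% of all genes (smallest adjusted p = 0.629, 1576 genes at an unadjusted p under 0.05). The count test edgeR called 0 genes, and DESeq2 called 200 (0.985%), with 0 of the 10 among them. DESeq2 gave no adjusted p for Hba-a2, Hbb-bt, Alas2 and Hpx, so it could not call them. The median log2 fold change was 1.01 over the 10 genes and 0.06 over all genes. The groups did not overlap for 3 of the 10, all higher (Hbb-bt, Hp and Hpx), where 21.5% of all genes lay higher without overlap and 19.2% lower, 40.8% in all.

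The globin genes differed widely between the DSS plus montmorillonite libraries. Hbb-bs had 61.8 and 327, Hba-a1 21.6 and 196, Hba-a2 0 and 3.63, and Alas2 0 and 25.4. In replicate 1 Hbb-bs lay between the water libraries and the other 3 genes at or below the lower of them. In replicate 2 Hbb-bs, Hba-a1 and Alas2 lay between the DSS libraries, and Hba-a2 between water and DSS. Hbb-bt had 5.75 and 9.08, on 4 and 5 reads. It was above water and below DSS in both libraries. Its ratio of pooled reads to water was 10.7 (95% counting interval 1.48 to 469). The CPM of all 4 globin genes together was 9.69 in replicate 1 (exact Clopper-Pearson 95% interval 7.43 to 12.4) and 65.6 in replicate 2 (58.4 to 73.6). The interval of replicate 1 overlapped that of water replicate 1, and the value of replicate 2 lay between those of the DSS libraries.

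Hp, Hmox1 and Cd163 split in the same manner, and Hpx and Blvrb did not. Hp had 14.4 in replicate 1 and 1239 in replicate 2, an 86.2-fold difference within the group. Hmox1 had 44.6 and 910, a 20.4-fold difference, and Cd163 had 14.4 and 332, a 23.1-fold difference. For Hmox1 and Cd163 replicate 1 was the lowest and replicate 2 the highest of all 6 libraries. The log2 fold change against water was 4.99 ± 2.18 (SE) for Hp, 1.55 ± 1.47 for Hmox1 and 0.76 ± 1.52 for Cd163. These standard errors were several times those in DSS against water for Hp and Hmox1. Hpx had 5.75 and 5.45, on 4 and 3 reads, and Blvrb had 314 and 198. Blvrb was highest in replicate 1 and lowest in replicate 2 of the 6 libraries.

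DSS plus montmorillonite was compared with DSS to ask whether the clay changed the response. Limma called 0 of the 10 genes and 0% of all genes (smallest adjusted p = 0.691, 1444 genes at an unadjusted p under 0.05). EdgeR called 0 genes and DESeq2 76 (0.374%), with 0 of the 10 among them. DESeq2 again gave no adjusted p for Hba-a2, Hbb-bt, Alas2 and Hpx. The median log2 fold change was -1.27 over the 10 genes and -0.07 over all genes. The groups did not overlap for Hba-a2 and Hbb-bt, which were lower, and for Hpx, which was higher, where 20.6% of all genes lay lower without overlap and 19.4% higher, 39.9% in all. Hba-a2 had a log2 fold change of -2.88 ± 0.95 (SE, limma adjusted p = 0.691) and a ratio of pooled reads of 0.110 (95% counting interval 0.0131 to 0.412), on 2 reads with the clay. Hp had -2.74 ± 2.05 (SE, limma adjusted p = 0.754) and Hmox1 -1.33 ± 1.41.

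The values in this comparison turned on DSS plus montmorillonite replicate 1 as much as on replicate 2. First, replicate 2 was left out. Without it, and with the lone library taken to vary like the DSS libraries, Hp (log2 fold change -5.91, limma adjusted p = 0.0307) and Hmox1 (-3.49, limma adjusted p = 0.0368) were called lower, 2 of the 10 against 1.4% of all genes. Without replicate 1 the log2 fold changes were 0.43 for Hp and 0.83 for Hmox1, and 0 of the 10 were called. The neutrophil markers moved with the same libraries (200 and 9719), as did the endothelial markers (1041 and 4402), the resident macrophage markers (3479 and 8623) and the platelet markers (170 and 3087). The colonocyte markers stood at 108056 in replicate 1 and 59036 in replicate 2. The red cell and precursor markers, summed mostly from Slc25a37 and Bpgm, stood at 1221 and 1341. The part of these cells in the split was not tested. Both comparisons with DSS plus montmorillonite use the same 2 libraries, and all 15 lists held 0 called genes in each.

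Genes with the most similar pattern over the 6 libraries were taken by Pearson correlation of log2(value + 1) among 16913 genes with a mean of at least 5. The points share their library and its size factor, and the values are a description over 6 points. For summed hemoglobin the nearest were Gna12, Fam167a, Chst15, Eid1 and Fstl1 (r 0.997 to 0.999), and 736 genes had r above 0.95. For Hp the nearest were Ildr2, Rdh10, Tek, Gpr65 and Gli2, with 801 genes above 0.95. Those nearest to Hmox1 were Pirb, Eif5a2, Dpep2, Cyp4f18 and Gm45714, with 589 genes above 0.95, and those nearest to Cd163 included Pcid2, Rnaseh1, Sec61a1 and Fcna, with 59 above it. Among the 10 genes themselves, r with summed hemoglobin was 0.955 for Hmox1, 0.915 for Alas2, 0.909 for Hp and 0.800 for Cd163, and -0.945 for Blvrb. Of the 16913 genes, 3.68% had a higher r than Hmox1, 8.02% than Alas2, 8.65% than Hp, 18.5% than Cd163 and 95.1% than Blvrb.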

How the data were processed

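RNA from 6 colon libraries was sequenced. Per the submitters' processing notes the builds were mm10 and GRCm38; aligner, counter, strand setting and normalization tool are not given in the sources used here. Normalised signal values were deposited, 1 for each of 20533 genes in each library. Taking the smallest step of a library as 1 read, 100% of its values came out whole (tolerance 0.01 read), and these reads were recovered. Groups and replicate numbers came from the sample titles. The 10 genes, the lists and the comparisons were chosen with earlier results of these data known, including that the DSS plus montmorillonite libraries lie apart, which is why each comparison was fitted on its own 4 libraries.

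Genes whose mean over the 6 libraries reached 1 were tested (20307, with 226 removed), by limma 3.58.1 under R 4.3.3 on log2(value + 1) with its trend option, two-sided, with Benjamini-Hochberg adjustment over all of them and a threshold of 0.05. All 10 genes passed this filter. A fold change is on the log2(value + 1) scale and understates the change of low genes. Count tests on the recovered reads, edgeR 4.0.16 and DESeq2 1.42.0, were alternatives; in DSS against water edgeR called 2993 genes, 1666 higher and 1327 lower, and DESeq2 4045. The code was tested on simulated data. Ratios of pooled reads carry exact 95% intervals. GENCODE M21 matched 20483 identifiers and not 50. Upstream windows are from RefSeq.

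Named genes were the 10 genes and, in each of 15 lists with 163 genes in all, counting Ltf in both its lists, the 2 with the smallest p in DSS against water and the most abundant one. Stab1, Txnrd1, Me1 and Bpgm were chosen after their values were seen. Some genes that these rules take are not reported here. Of the listed genes without a row, no values were analysed here.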

Additional observations from a re-analysis of the deposited data

How the results depend on the processing

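In DSS against water, 5 of the 10 genes were called. With a pseudocount of 0.1 there were 3 (12% of all genes called), with a mean value of at least 10 there were 3 of 7 tested (22.2%), with the globin copies summed there were 3 of 8 (15.1%), and with all 6 libraries in 1 fit 0 (0%). Leaving out each library gave 0 to 2. With the replicate number as a block 6 of the 10 were called, Hba-a1 being added, and 5084 of all genes (25%) against 3064; in both other comparisons the block gave 0. Same-numbered libraries share only a number in the labels, and the correlation of their deviations was 0.20 for water and DSS, 0.16 for water and DSS plus montmorillonite and 0.41 for DSS and DSS plus montmorillonite. Over all genes, leaving out each library left 0 to 317 called in DSS against water and 0 to 285 in DSS plus montmorillonite against DSS. Scaling by library size only called 2199 genes higher and 893 lower in DSS against water (1605 and 1459 with the deposited factors), moved the median of all genes from 0.10 to 0.33 (log2), and left 5 of the 10 called.

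Signs turned in some values that had not passed. Over fits leaving out each library, the log2 fold change of Cd163 in DSS against water ran from -0.28 to 2.07. In DSS plus montmorillonite against water the ranges were -1.33 to 1.80 for Hba-a1, -0.77 to 1.44 for Hba-a2, -2.26 to 2.47 for Alas2 (-1.23 with a pseudocount of 0.1), -0.61 to 3.71 for Hmox1, -1.46 to 2.98 for Cd163 and -0.45 to 0.21 for Blvrb. In DSS plus montmorillonite against DSS, with 0 to 2 of the 10 called, they were -4.00 to 0.72 for Alas2, -5.91 to 0.43 for Hp, -3.49 to 0.83 for Hmox1, -2.35 to 2.08 for Cd163 (0.69 with edgeR, 0.71 with DESeq2) and -0.012 to 0.65 for Blvrb. Of 405 values of single genes under alternatives, 357 kept their direction and side of the threshold, 25 lost and 4 gained a call, and 19 changed sign, none of them called. A value without an adjusted p counted as not called. The cause was not tested. Depth limits Hbb-bt, Hba-a2, Alas2 and Hpx, with 1 to 5 reads in water.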

Other observations

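Globin genes that red cells are not known for were counted as well. In DSS against water limma called 0 of 4 (2 at an unadjusted p under 0.05), edgeR 0, and DESeq2 1, Ngb, which was lower. Cygb, cytoglobin of fibroblast-like cells, had 167 and 155 in water against 195 and 443 in DSS, with 128 and 334 where the clay was added (log2 fold change in DSS against water 0.87 ± 0.40 SE, limma adjusted p = 0.197). Ngb, neuroglobin, had 50.9 and 100.1 in water against 7.71 and 28.3 in DSS (-2.18 ± 0.70 SE, limma adjusted p = 0.0895). Adgb, androglobin, had 7.68 and 2.27 in water against 27.1 and 17.3 in DSS (2.09 ± 0.69 SE, limma adjusted p = 0.0966). For Cygb and Adgb both DSS libraries lay above both water libraries, as for 33.9% of all genes, and for Ngb below, as for 28.5%. Mb, myoglobin of muscle, followed neither group, with 62.4 and 2.27 in water against 0.670 and 63.8 in DSS.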
